A study of Mus musculus with 2 samples.

Results

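Ceiling-type cells are the lymphatic endothelial cells that line the outer wall of the lymph node's subcapsular sinus, the space into which afferent lymph flows. Here they were defined by 3 genes: Ackr4, Gdf10 and Parm1. Of the 10612 deposited cell barcodes in 2 libraries, 9919 passed the cell and hashtag rules. A hashtag is an antibody-borne oligonucleotide that marks the pool a cell came from. A cell was called lymphatic when the UMIs of Prox1, Pdpn, Mmrn1 and Lyve1 summed to at least 2 and exceeded the sum of the blood vessel genes Flt1, Ly6c1 and Cd34. UMIs are unique molecular identifiers, tags that mark single captured RNA molecules. A lymphatic cell was called ceiling-type when Ackr4, Gdf10 and Parm1 summed to at least 2 UMIs and exceeded each of 4 other 3-gene panels. This gave 1298 ceiling-type cells among 3779 lymphatic cells. The other panels gave 1138 floor-type cells (Coch, Bmp2, C1ql3), 517 Marco-type cells (Marco, Flrt3, C1ql2), 295 Ptx3-type cells (Mrc1, Reln, Ptx3) and 329 Nts-type cells (Nts, Pkhd1l1, Fgl2), and 202 lymphatic cells fell in no class.

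Lymph reaches a node under a double-walled sinus whose outer wall, the ceiling, faces the capsule and whose inner wall, the floor, faces the node's tissue. ACKR4, an atypical chemokine receptor that does not signal for migration, takes up and degrades CCL19 and CCL21. Its place in the ceiling is known to help shape a chemokine gradient that leads dendritic cells from the sinus into the node. GDF10 is a secreted ligand of the TGF-beta superfamily, and PARM1 is a mucin-like membrane protein.

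The study compared endothelial cells from wild-type (WT) and Xbp1-KO mice, in peripheral and in mesenteric lymph nodes. XBP1, made when the endoplasmic reticulum (ER) is loaded with proteins to fold, switches on genes that raise its secretory capacity. All mice, WT included, had received tamoxifen, the compound that switches on inducible Cre recombinases. The labels do not name the Cre line, the cells it acts in, or the age, sex and number of animals in a pool. Each library held 4 hashtagged pools, 1 for each pairing of node type and genotype, so every group has n = 2 pools. Nothing states that the pools of the 2 libraries came from separate animals, but Xist levels, given below, show that the 2 pools of each group differed in sex. The p-values measure the spread between such pools, in which animal, sex and library cannot be told apart. The protocol describes enzymatic digestion for peripheral nodes only, followed by depletion of CD45-positive cells and sorting of endothelial cells.

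In library 1, ceiling-type cells numbered 341 in WT and 464 in Xbp1-KO peripheral nodes, and 131 in WT and 38 in Xbp1-KO mesenteric nodes. In library 2 the pools, in that order, gave 122, 129, 23 and 50 cells. Counts were summed over the ceiling-type cells of each pool and scaled to a common total as CPM, the standard depth-scaled count unit; the 8 sums held 155246 to 2390856 UMIs, and precision is lowest in the mesenteric pools. The median ceiling-type cell held 4560 to 7628 UMIs and 2.08% to 2.52% mitochondrial UMIs across pools. No barcode sequence of a ceiling-type cell occurred in both libraries, and 3 did among all barcodes. The libraries differed in the sex of their pools. Xist, transcribed from the inactive X chromosome, stood at 1121 and 883 CPM in peripheral and mesenteric Xbp1-KO cells of library 1 and at 27.8 and 12.5 CPM in its WT pools. In library 2 it stood at 1091 and 663 CPM in the WT pools and at 2.34 and 0 CPM in the Xbp1-KO pools. Within a library, sex and genotype therefore cannot be told apart. Averages over both libraries hold pools of both sexes for each genotype, though the sums of these pools differ in size. Fits that leave out a library cannot separate sex from genotype, and those that leave out a pool do not balance them.

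Leukocyte and red cell markers were low in the ceiling-type sums. The 8 leukocyte markers summed to 0 to 12.8 CPM, with Cd3e and C1qa at 0, and the 4 red cell markers to 0 to 4.69 CPM. The 9 blood endothelial markers summed to 1265 to 1778 CPM, against 995 to 1911 CPM in the other classes. Plvap alone made up 1016 CPM over all ceiling-type pools, while Flt1, Ly6c1 and Cd34, the blood genes of the rule, stood at 30.9, 27.7 and 19.7 CPM. The part of blood endothelial RNA in the results was not tested. The 7 fibroblast markers summed to 36.0 to 112.1 CPM in 6 pools but to 691 and 186.6 CPM in the Xbp1-KO mesenteric pools of libraries 1 and 2. In each of these 2 pools a single cell carried the excess. The cell in library 1, 1 of 38, held 45 UMIs of Col1a1, Col1a2, Col3a1, Lum, Pdgfra and Pdgfrb, and the cell in library 2, 1 of 50, held 37. Both had 0 UMIs of Ackr4, Prox1, Mmrn1, Lyve1, Pecam1, Cdh5 and Tie1, and entered the lymphatic class through Pdpn alone, with 2 and 6 UMIs. They met the ceiling rule through Gdf10 and Parm1, with 3 UMIs of each in library 1 and 0 and 5 UMIs in library 2. Another 12 ceiling-type cells held 1 or 2 UMIs of these genes. Dcn, the remaining fibroblast marker, was not counted here and was detected in 22.03% of ceiling-type cells and 9.43% of the other classes. Below, fibroblast UMIs are those of Col1a1, Col1a2, Col3a1, Lum, Pdgfra and Pdgfrb. Results that rest on these 14 cells are given with and without them, an alternative chosen after the data were seen.

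The rule left most members far from its threshold. Ackr4, Gdf10 and Parm1 summed to a median of 12 UMIs per ceiling-type cell, 1123 cells held at least 6, and all 3 genes were detected in 843 cells. Just inside the threshold, 36 cells held exactly 2 UMIs and 91 exceeded the next panel by exactly 1 UMI. Just outside it, 15 lymphatic cells held 1 UMI above each other panel, and 66 with at least 2 UMIs were tied with another panel. A further 566 lymphatic cells held at least 2 UMIs of the 3 genes but more of another panel. Ackr4 was detected in 89.3% of ceiling-type cells, 12.3% of the other 4 classes together and 1.91% of blood endothelial cells, whose median depths were 5364, 5574 and 2871 UMIs.

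The values that follow describe classes drawn from the same cells, with no test. The ceiling markers below were not used by the rule. Cd36, which takes up long-chain fatty acids, stood at 1781 CPM in ceiling-type cells and at 44.8, 145, 315 and 682 CPM in the floor, Marco, Ptx3 and Nts types. Foxc2, a transcription factor of collecting vessels and valves, stood at 112 CPM against 11.01 to 92.7 CPM. Btnl9 (178 CPM), Cav1 (459 CPM), the main protein of caveolae, and the fatty acid carrier Fabp4 (1948 CPM) were also above their levels in floor-type and Marco-type cells, but not above those in Nts-type cells (189, 759 and 2529 CPM). Nt5e, the remaining marker on the ceiling list, had 0 UMIs. Prox1, which sets lymphatic identity and counts toward the lymphatic call, was even across classes, at 716 CPM in ceiling-type cells against 723 to 817 CPM. Of the floor markers that the rule did not use, Ccl20 stood at 2.36 CPM against 751 CPM in floor-type cells, and Madcam1 at 17.9 against 626 CPM.

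**Figure D1:**
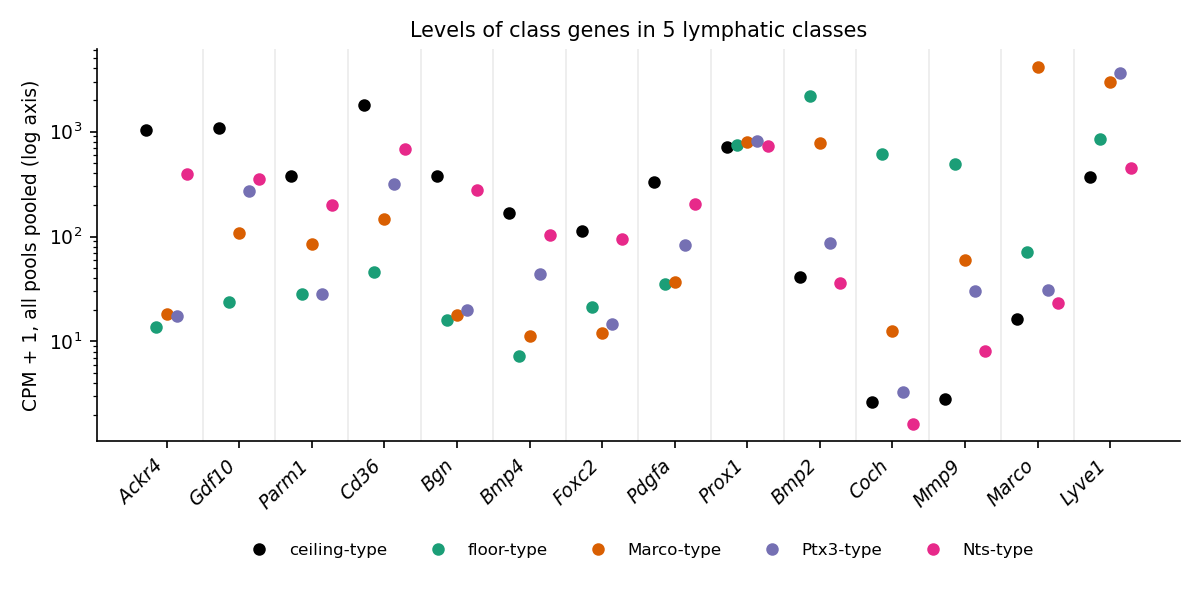
Levels of class genes in the 5 lymphatic classes, all pools summed. The y axis is CPM + 1 on a log scale and each point is 1 class. Ackr4, Gdf10, Parm1, Cd36 and Bgn are highest in ceiling-type cells with Nts-type cells next, Prox1 is even, and Bmp2, Coch, Mmp9, Marco and Lyve1 are low.

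Levels in ceiling-type cells were next set against those of the other 4 classes pooled. Genes high in ceiling-type cells were ranked among the 6517 with a UMI in at least 10% of ceiling-type cells, by the lowest ratio over the 8 pools, with 1 CPM added to both levels. Among the leading 20, the BMP ligand Bmp6 stood at 6.44 to 51.4 CPM over the ceiling-type pools and 0 to 7.51 CPM in the other classes. For Bmp4, another BMP ligand, the ratio was 4.57 to 10.7 over pools. The platelet-derived growth factors Pdgfb and Pdgfa had ratios of 3.89 to 10.1 and 3.69 to 11.7. The small matrix proteoglycan Bgn had a lowest ratio of 4.78. The WNT antagonist Dkk2, the guidance ligand Slit2 and Prickle1 were, like Bmp6, at 0 in the other classes of at least 1 pool, where the added 1 CPM sets the ratio. Ackr4, Gdf10 and Parm1 are among the 20 because cells were selected on them, and the others were Car8, Cd36, Prss23, Cdh13, Klrb1f, AW551984, Foxc2, Itga3 and Btnl9. Nts-type cells came much closer than the pooled ratio shows. Bmp6 stood at 40.5 CPM in ceiling-type and 29.2 CPM in Nts-type cells, and Bmp4 at 167 and 102 CPM. The cadherin Cdh13 was higher in Nts-type cells, at 239 against 190 CPM. Ackr4 stood at 397 CPM there, against 12.8 to 17.4 CPM in the floor, Marco and Ptx3 types.

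Genes low in ceiling-type cells were ranked in another gene set, those with a UMI in at least 10% of cells of the other classes. The 10 lowest had ratios of at most 0.0504 in every pool, again with 1 CPM added. They were the gelatinase Mmp9, Coch, the scavenger receptor Marco, the amino acid oxidase Il4i1, Chrnb4, Bmp2, the chemokine Ccl20, Insm1, the vitamin D receptor Vdr and Bmp8a. Coch, Bmp2 and Marco are genes of the panels that a ceiling-type cell had to exceed, so their low levels follow in part from the rule. Bmp2 stood at 40.4 CPM against 2170 CPM in floor-type cells. Lyve1, the hyaluronan receptor that many lymphatic capillaries carry and a gene of the lymphatic call, stood at 367 CPM, below the 454 to 3646 CPM of the other 4 classes.

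Ceiling-type cells made up 34.3% and 49.8% of lymphatic cells in the WT peripheral pools of libraries 1 and 2, and 35.3% and 38.9% in the Xbp1-KO peripheral pools. In mesenteric nodes the shares were 29.4% and 35.4% in the WT pools and 23.2% and 22.6% in the Xbp1-KO pools. Peripheral pools averaged 39.6% ± 7.08 (SD, n = 4) and mesenteric pools 27.7% ± 6.01. The ranges overlapped over all 8 pools but not within either library, where the differences were 8.52 points in library 1 and 15.3 points in library 2. The difference of 11.9 percentage points had p = 0.0857 in a two-sided exact permutation test over the 8 pools, in which the smallest possible p is 0.0286. With the tissue labels permuted within each library, an alternative chosen after the data were seen, the exact permutation p was 0.0556, the smallest that arrangement allows. With stricter panels it was 13.6 points (exact permutation p = 0.0286). As a share of all cells it was 18.1% ± 3.54 against 5.78% ± 1.10, also with exact permutation p = 0.0286, a value that depends on how many blood endothelial cells the sort yielded. Xbp1-KO pools averaged 30.0% ± 8.32 and WT pools 37.2% ± 8.76 of lymphatic cells, a difference of -7.25 points with exact permutation p = 0.257. A share counts captured cells after digestion and sorting, and a difference between pools in panel gene levels can move it.

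**Figure D2:**
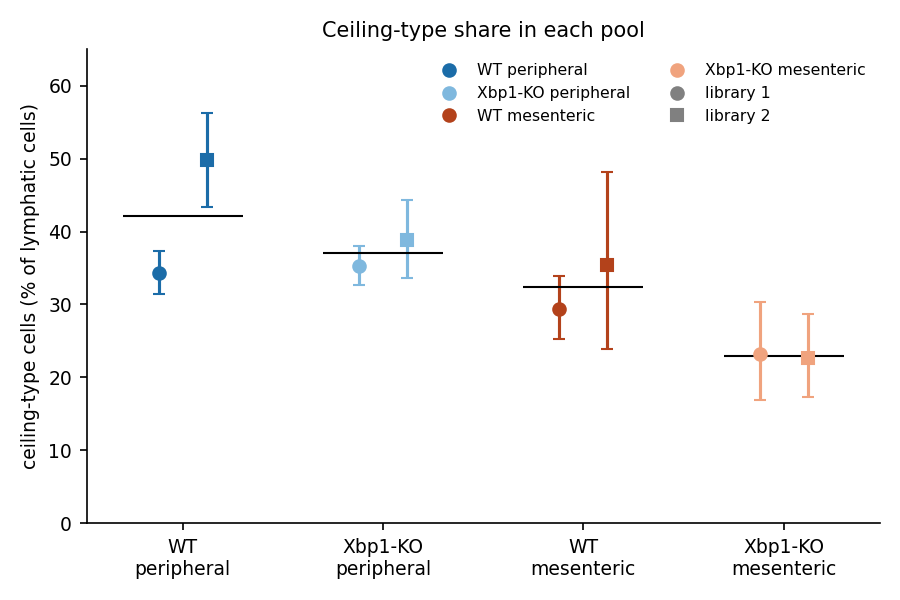
Ceiling-type cells as a percent of lymphatic cells in each of the 8 pools. Points are pools, error bars are exact 95% binomial intervals that cover counting error only, and horizontal lines are means of 2 pools. The WT peripheral pool of library 2, at 49.8%, is highest, and the Xbp1-KO mesenteric pools, at 23.2% and 22.6%, are lowest.

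The panel genes decide membership, so their levels by node are given as a description, with no test. Ackr4 (GRCm38 chromosome 9, 104084157 to 104126933, minus strand) stood at 938 and 1074 CPM in the WT peripheral pools, 1029.8 and 918 CPM in the Xbp1-KO peripheral pools, 1270.4 and 1694 CPM in the WT mesenteric pools and 1054 and 1158 CPM in the Xbp1-KO mesenteric pools. The tissues overlapped, although the mesenteric pools were each above the peripheral pool of their genotype and library, with a peripheral minus mesenteric log2 fold change of -0.43 ± 0.12 (SE). Gdf10 (GRCm38 chromosome 14, 33923587 to 33937983, plus strand) showed the other order, at 1123 and 1015 CPM in the WT peripheral pools, 1267 and 907 CPM in the Xbp1-KO peripheral pools, 890.2 and 618 CPM in the WT mesenteric pools and 873 and 881 CPM in the Xbp1-KO mesenteric pools. Its log2 fold change was 0.33 ± 0.14. Parm1 (GRCm38 chromosome 5, 91517615 to 91626894, plus strand) ranged over 339.98 to 383 CPM in peripheral and 328 to 432 CPM in mesenteric pools, with a log2 fold change of -0.18 ± 0.14. Between genotypes the log2 fold changes were -0.24, 0.09 and -0.06 in the same order (Xbp1-KO minus WT, both tissues).

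The clearest differences within ceiling-type cells lay between peripheral and mesenteric nodes. Of 8498 genes tested, 70 were higher in peripheral (0.824%) and 86 lower in peripheral (1.01%) at an adjusted p under 0.05 (edgeR's quasi-likelihood test, Benjamini-Hochberg adjustment). With the library as a term 485 genes passed (5.71%), all 156 of the first fit among them. Without the 14 cells that held fibroblast UMIs 150 passed, of which 140 were among the 156. Over the 10 fits that left out a pool or a library, 40 of the 156 genes were called every time, 151 were tested every time with the same sign, and 1 changed its sign. WT pools alone gave 49 genes, 42 of them among the 156. Of the genes named below for this contrast, Gucy1a1, Gucy1b1, Lpl, Gpihbp1, Cav1, Cyp26b1, Il33, Serpine2, Lcn2, Spock3, Lepr, Fbln5, Myof, Fosb, Junb, Egr1, Zfp36, Socs3 and Idi1 also passed there, and the others did not. Since digestion is described for peripheral nodes only, handling and node type cannot be told apart for any gene of this contrast. All values below are log2 fold changes, peripheral minus mesenteric, unless given as CPM.

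Both subunits of soluble guanylate cyclase, the nitric oxide receptor that makes cyclic GMP, were higher in mesenteric ceiling-type cells. Gucy1a1 (GRCm38 chromosome 3, 82092427 to 82145789, minus strand) stood at 16.7 and 10.1 CPM in the WT peripheral pools, 10.04 and 8.18 CPM in the Xbp1-KO peripheral pools, 90.7 and 161 CPM in the WT mesenteric pools and 45.4 and 139.9 CPM in the Xbp1-KO mesenteric pools. Gucy1b1 (GRCm38 chromosome 3, 82032006 to 82074689, minus strand) stood at 10.6 and 5.07 CPM in the WT peripheral pools, 9.20 and 12.9 CPM in the Xbp1-KO peripheral pools, 40.7 and 51.5 CPM in the WT mesenteric pools and 40.3 and 51.8 CPM in the Xbp1-KO mesenteric pools. For neither gene did the tissues overlap. The log2 fold changes were -3.25 ± 0.31 (SE; adjusted p = 1.42e-05) and -2.31 ± 0.30 (SE; adjusted p = 9.84e-05), and both genes were called in each of the 10 left-out fits, where Gucy1a1 ranged over -4.03 to -2.41 and Gucy1b1 over -2.68 to -2.06. A UMI of Gucy1a1 was seen in 3.23% to 6.74% of cells of the peripheral pools and in 15.8% to 47.8% of those of the mesenteric pools. After thinning each cell to 3000 UMIs, which left out 0 to 42 shallower cells per pool, the shares were 2.13% to 3.36% and 11.8% to 39.1%. Blood endothelial cells, thinned alike, had 1.92%. Among the other classes Gucy1a1 stood at 25.9 CPM in peripheral and 125 CPM in mesenteric Nts-type cells and at under 1 CPM in floor-type cells of both.

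Some genes of lipid handling also differed. On a list of 17 such genes, 4 were lower and 1 higher in peripheral nodes, and the list's median was -0.25 against 0.01 over all genes tested. Lpl, the lipase that releases fatty acids from triglyceride-rich particles, stood at 5.57 and 3.81 CPM in the WT peripheral pools, 10.5 and 9.35 CPM in the Xbp1-KO peripheral pools, 34.4 and 77.3 CPM in the WT mesenteric pools and 50.4 and 62.2 CPM in the Xbp1-KO mesenteric pools (-2.89 ± 0.32 SE, adjusted p = 1.42e-05). In the Xbp1-KO mesenteric pools 9 of 10 and 11 of 24 UMIs lay in the 2 cells described above: without the cells that held fibroblast UMIs the levels there were 5.21 and 34.9 CPM, and the fold change was -2.26 (adjusted p = 0.00429), with overlapping tissues. Gpihbp1, which anchors lipoprotein lipase to endothelium, stood at 47.3, 32.98, 30.95 and 37.4 CPM in the 4 peripheral pools and 147, 57.97, 85.7 and 64.8 CPM in the 4 mesenteric pools (-1.40 ± 0.24 SE, adjusted p = 0.00156). It lost its call without the WT mesenteric pool of library 1, and without library 1 it was -0.82 (adjusted p = 0.434). Cav1 was lower in every peripheral pool, at 399.9 to 430.05 against 547 to 1114 CPM (-0.80 ± 0.15 SE, adjusted p = 0.00409). Abca1, which exports cholesterol, ran the other way, at 353 to 465 against 109.5 to 207 CPM (1.06 ± 0.17 SE, adjusted p = 0.000801). Apoe, a carrier of exported cholesterol, was -0.83 ± 0.16 (SE; adjusted p = 0.00947). The 2 cells held 39.3% and 44.3% of its UMIs in their pools, and without the 14 cells with fibroblast UMIs it was -0.46 (adjusted p = 0.125). It also did not pass without called doublets (adjusted p = 0.0675) or with stricter panels (adjusted p = 0.195). Cd36 (-0.25, adjusted p = 0.277) and Fabp4 (0.03, adjusted p = 0.952) did not pass.

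Other genes high in mesenteric pools included enzymes and secreted proteins. Cyp26b1, which breaks down retinoic acid, stood at 0.557, 0, 0.418 and 0 CPM in peripheral and 17.2, 70.9, 10.1 and 28.5 CPM in mesenteric pools, and the groups did not overlap. Its fitted fold change of -5.85 ± 0.86 depends on the counts near 0, and without the Xbp1-KO mesenteric pool of library 2 it was -5.33 with adjusted p = 0.0745. Vwf, the clotting factor carrier of endothelial granules, stood at 13.4, 1.27, 7.53 and 4.67 against 57.9, 135, 121 and 38.9 CPM (-3.28 ± 0.56 SE, adjusted p = 0.0326). It lost its call without either Xbp1-KO peripheral pool (highest adjusted p = 0.197). Il33, a nuclear alarmin cytokine, was lower in each peripheral pool, at 30.4 to 54.5 against 113 to 122 CPM (-1.34 ± 0.19 SE, adjusted p = 0.000307). The protease inhibitor Serpine2 (-2.21) and the iron-chelator carrier Lcn2 (-2.001) are named after their values were seen, and both were called in every left-out fit. Islr2 (-3.93), Islr (-3.57), the oxygen sensor Egln3 (-2.94), Fmo2 (-2.90) and the guidance ligand Slit3 (-2.89) complete the 10 named genes with the largest fold changes among those of the same sign in both libraries. Each of these 5 lost its call in at least 3 of the 10 left-out fits, where the highest adjusted p-values were 0.411, 0.346, 0.300, 0.297 and 0.296. Without the cells holding fibroblast UMIs Islr was no longer tested and Fmo2 had adjusted p = 0.0631.

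Spock3, a secreted proteoglycan of the testican family, had the smallest adjusted p among the named genes high in peripheral nodes. Spock3 (GRCm38 chromosome 8, 62951009 to 63357103, plus strand) stood at 66.8 and 74.8 CPM in the WT peripheral pools, 88.7 and 87.6 CPM in the Xbp1-KO peripheral pools, 9.39 and 12.9 CPM in the WT mesenteric pools and 0 and 7.77 CPM in the Xbp1-KO mesenteric pools (3.36 ± 0.33 SE, adjusted p = 8.57e-06). Every peripheral pool lay above every mesenteric pool, and a UMI was seen in 22% to 32.6% of peripheral and 0% to 8.70% of mesenteric cells. The 0% was 0 of 38 cells, a count of 0 that allows a share of cells with a UMI of up to 7.89% (3 counts of 38, counting error only) and does not limit the share of cells that express the gene. In blood endothelial cells 0.243% had a UMI. The leptin receptor Lepr, at 74.6, 49.5, 84.5 and 109 CPM in peripheral and 17.2, 12.9, 30.3 and 20.7 CPM in mesenteric pools, was higher in peripheral by 1.91 ± 0.27 (SE; adjusted p = 0.000307). Fbln5, a protein of elastic fibres, stood at 96.4 to 122 against 25.2 to 38.6 CPM (1.84 ± 0.23 SE, adjusted p = 6.63e-05). Of 23 tested matrix genes 1 passed, Fbln5, and with the library as a term 5 did, 3 higher and 2 lower in peripheral (Col4a2, Fbln2, Fbln5, Eln and Sparcl1). The membrane repair protein Myof (1.85 ± 0.23 SE, adjusted p = 6.72e-05), the muscarinic receptor Chrm3 (2.06 ± 0.30 SE, adjusted p = 0.000307) and the adhesion molecule Alcam (1.62 ± 0.25 SE, adjusted p = 0.000801) were likewise higher in every peripheral pool. All 6 genes were called in each of the 10 left-out fits.

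The remaining genes with large peripheral excess rested on few counts. Lrrn1, at 24.5, 16.5, 30.5 and 18.7 CPM in peripheral and 3.13, 12.9, 0 and 0 CPM in mesenteric pools, and the NKG2D ligand Raet1e, at 18.4, 25.4, 16.3 and 21.03 against 12.5, 12.9, 0 and 0 CPM, passed with adjusted p = 0.00325 and 0.0273. Both had 0 UMIs in the Xbp1-KO mesenteric pools, so their fitted fold changes are no measure of size. Within WT pools alone Lrrn1 was 2.01 (adjusted p = 0.335) and Raet1e 0.68 (adjusted p = 0.684). E-selectin, Sele, which captures rolling leukocytes, was 2.75 ± 0.68 (SE; adjusted p = 0.0395), the junction protein Epb41l4b 2.41 ± 0.47 (SE; adjusted p = 0.00613) and the growth factor midkine, Mdk, 2.29 ± 0.48 (SE; adjusted p = 0.0121). These 3 lost their calls in 6, 2 and 3 of the left-out fits, Raet1e did in 6 (adjusted p up to 0.537) and Lrrn1 in 1, without library 1 (adjusted p = 0.604). DESeq2 did not call them or Raet1e; edgeR's adjusted p-values in the left-out fits reached 0.208, 0.412 and 0.209.

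**Figure D3:**
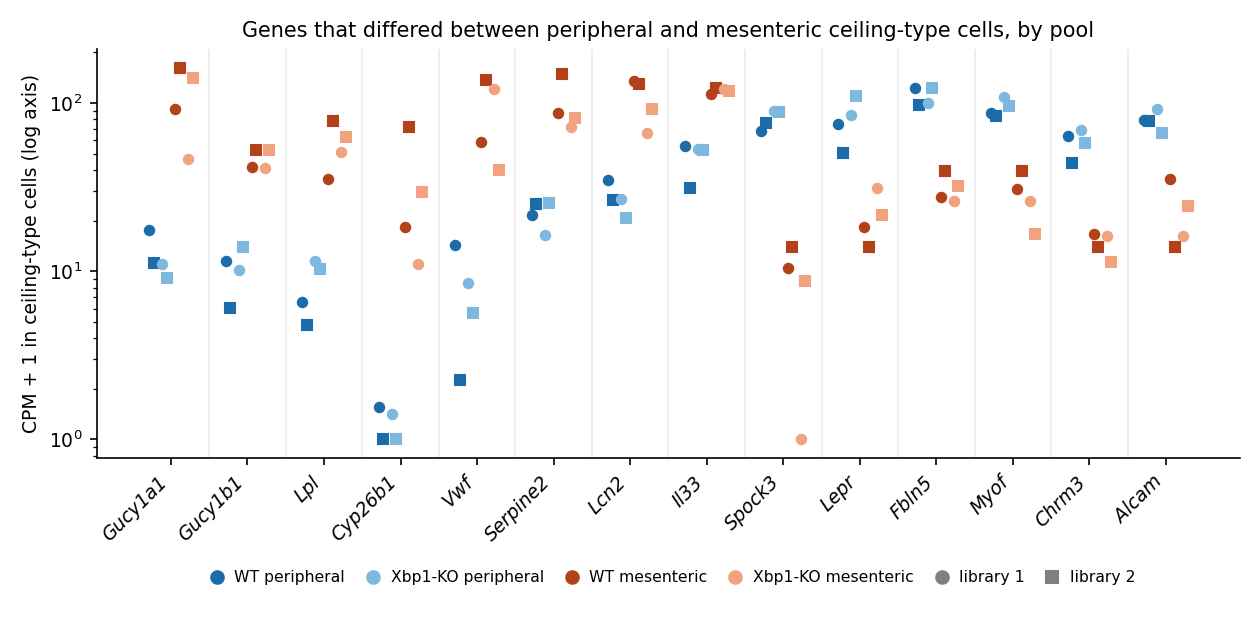
Levels of 14 genes that differed between peripheral and mesenteric ceiling-type cells. Each point is 1 pool, with circles for library 1 and squares for library 2, and the y axis is CPM + 1 on a log scale. Gucy1a1 through Il33 are higher in the mesenteric pools and Spock3 through Alcam in the peripheral pools, with no overlap; the Lpl points of the Xbp1-KO mesenteric pools include the 2 cells with many fibroblast UMIs.

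Of 28 tested genes on a list of dissociation and heat shock genes, 7 were higher in peripheral nodes and 0 lower. Immediate early genes on the list respond within minutes to stimulation or to tissue dissociation. The 7 were Fosb, Junb, Egr1, Ier2, Dusp1, Zfp36 and Socs3, with log2 fold changes of 0.59 to 1.08. With the library as a term 9 were higher and 3 lower, the 3 being the heat shock genes Hspa1a, Hsp90aa1 and Dnaja1, and without the cells that held fibroblast UMIs 7 were higher and 1, Hspb1, was lower. The list's median was -0.000625 against 0.0135 over all genes, with 14 members above 0 and 14 below. Fosb stood at 1335 and 1194 CPM in the WT peripheral pools, 1308 and 1262 CPM in the Xbp1-KO peripheral pools, 419 and 399 CPM in the WT mesenteric pools and 736 and 1055 CPM in the Xbp1-KO mesenteric pools. Within WT the tissues were far apart, and the Xbp1-KO mesenteric pools lay between the WT mesenteric and the peripheral pools. Fosb, Egr1, Ier2 and Zfp36 were called in every left-out fit. Zfp36 and Dusp1 were not called with stricter panels, or with the library as a term once the cells that held fibroblast UMIs were left out. Junb and Socs3 lost their calls without library 1 (adjusted p = 0.0568 and 0.126), and Dusp1 lost it without any of 3 single pools (up to 0.145). The digestion is described for peripheral nodes only. The handling of the 2 tissues and the tissues themselves cannot be told apart for these genes, as for all others of this contrast.

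Few members of the other lists passed. In the TGF-beta list 2 of 18 tested genes did: the co-receptor Tgfbr3 was higher in peripheral (0.88 ± 0.17 SE, adjusted p = 0.00650) and the BMP target Id3 lower (-0.74 ± 0.15 SE, adjusted p = 0.00725). Both lost their calls without library 1, without its WT mesenteric pool or without its Xbp1-KO peripheral pool, where the highest adjusted p-values were 0.368 and 0.388. Of 27 tested interferon-stimulated and antigen presentation genes 3 passed: the transcription factor Irf8 (0.69 ± 0.15 SE, adjusted p = 0.0153) and the antigen presentation chaperone Cd74 (1.19 ± 0.25 SE, adjusted p = 0.0112) were higher in peripheral, and the interferon-induced Ifi27l2a was lower (-0.69 ± 0.13 SE, adjusted p = 0.00394). Stab2, a scavenger receptor for hyaluronan, was higher (0.67 ± 0.15 SE, adjusted p = 0.0179). Fn1, a matrix protein of lymphatic valves, was lower (-0.67 ± 0.14 SE, adjusted p = 0.0131), as were Plpp1, a lipid phosphatase that inactivates lysophosphatidic acid (-0.84 ± 0.19 SE, adjusted p = 0.0169), and Ddit4, an inhibitor of mTORC1 (-1.43 ± 0.24 SE, adjusted p = 0.00156). These 7 genes lost their calls in 2 to 4 left-out fits, with highest adjusted p-values of 0.390, 0.459, 0.165, 0.0854, 0.0854, 0.129 and 0.155 in that order, and DESeq2 did not call Cd74 or Plpp1. No gene passed among 12 tested chemokine genes, 18 lymphatic transcription factors and growth factor receptors, or 46 ER targets of XBP1. The library term, with which 485 of all 8498 genes passed (5.71%), added calls on several of these lists. With it 5 ER targets (Sdf2l1, Sec61g, Ssr2, Ssr4 and Ostc) were lower in peripheral, as was the chemokine Cxcl12, most of whose UMIs in the Xbp1-KO mesenteric pools lay in the 2 cells with many fibroblast UMIs. Ackr4 and Gdf10, members of the chemokine and TGF-beta lists that the rule used, are left out of these calls. The term called Bmp4 beside Tgfbr3 and Id3 on the TGF-beta list of 18 tested genes, and 5 of 27 interferon and antigen presentation genes. It also called 4 of 16 scavenger receptor genes, 3 of 16 valve and junction genes and 2 of 10 genes of lysophospholipid signalling.

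Of 20 tested genes of cholesterol synthesis and its control, 9 were lower in peripheral than in mesenteric ceiling-type cells and 0 higher. The list of 25 genes was drawn up after values of its members had been seen, so its count describes these pools and is no independent evidence. Of the 20, 19 were below 0, and the median was -1.11 against 0.01 over all genes. Hmgcs1, an early enzyme of the pathway, stood at 26.2, 25.4, 42.2 and 23.4 CPM in peripheral and 70.4, 25.8, 80.7 and 69.96 CPM in mesenteric pools (-1.19 ± 0.25 SE, adjusted p = 0.0111). The tissues overlapped, since the WT mesenteric pool of library 2 was as low as the peripheral pools. Further along, Idi1 stood at 11.1, 8.88, 18.8 and 3.51 against 45.4, 45.1, 40.3 and 72.6 CPM (-2.18 ± 0.34 SE, adjusted p = 0.000801) and Fdps at 20.6, 34.3, 19.7 and 22.2 against 57.9, 116, 50.4 and 85.5 CPM (-1.73 ± 0.26 SE, adjusted p = 0.000570), with no overlap. The enzymes Fdft1 (-1.24) and Msmo1 (-1.30), the ER retention factor Insig1 (-1.33) and the controlling transcription factor Srebf2 (-0.85) also passed.

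Single pools bore on these calls. Without the WT mesenteric pool of library 1, Hmgcs1 was -0.57 (adjusted p = 0.587) and Srebf2 -0.51 (adjusted p = 0.541). Among the left-out fits, Idi1 and Fdps lost their calls without the Xbp1-KO mesenteric pool of library 2 alone, with adjusted p = 0.0593 and 0.0503. Fdps also did not pass with WT pools only (adjusted p = 0.0812) or with sums thinned to the smallest (adjusted p = 0.0698). Fdft1, Insig1 and Msmo1 lost their calls without the WT mesenteric pool of library 1, without the Xbp1-KO mesenteric pool of library 2, and without library 2. Fdft1 and Insig1 also did without library 1. Fdft1 further lost its call with stricter panels and without the cells that held fibroblast UMIs. All 9 genes kept their sign in the 10 left-out fits, but DESeq2 did not call Fdft1, Hmgcs1, Insig1, Msmo1 or Srebf2. In the other 4 classes together, the list's median was -0.83 with 0 of 20 above 0, and no member passed the test of the difference between ceiling-type and other cells. Among the 25 genes, 18 had a promoter in the RefSeq table used here. The sterol regulatory element TCACNCCAC, searched with its reverse GTGGNGTGA in the 250 bases before each start, occurred in 1 of the 18 genes, Hmgcs1 (5.56%), and in 1.22% of all 27025 genes with a promoter there. The Hmgcs1 promoter is printed because Hmgcs1 is the match among genes that passed; it lies at chr13:119690101-119690350 on the plus strand (RefSeq, GRCm38.p6), with the match in capitals, 5′ to 3′.
Hmgcs1: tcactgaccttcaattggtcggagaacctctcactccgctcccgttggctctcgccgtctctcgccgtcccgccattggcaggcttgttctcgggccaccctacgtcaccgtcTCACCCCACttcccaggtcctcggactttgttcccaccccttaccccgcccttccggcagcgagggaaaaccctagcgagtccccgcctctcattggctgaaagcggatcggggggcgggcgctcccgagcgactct

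**Figure D4:**
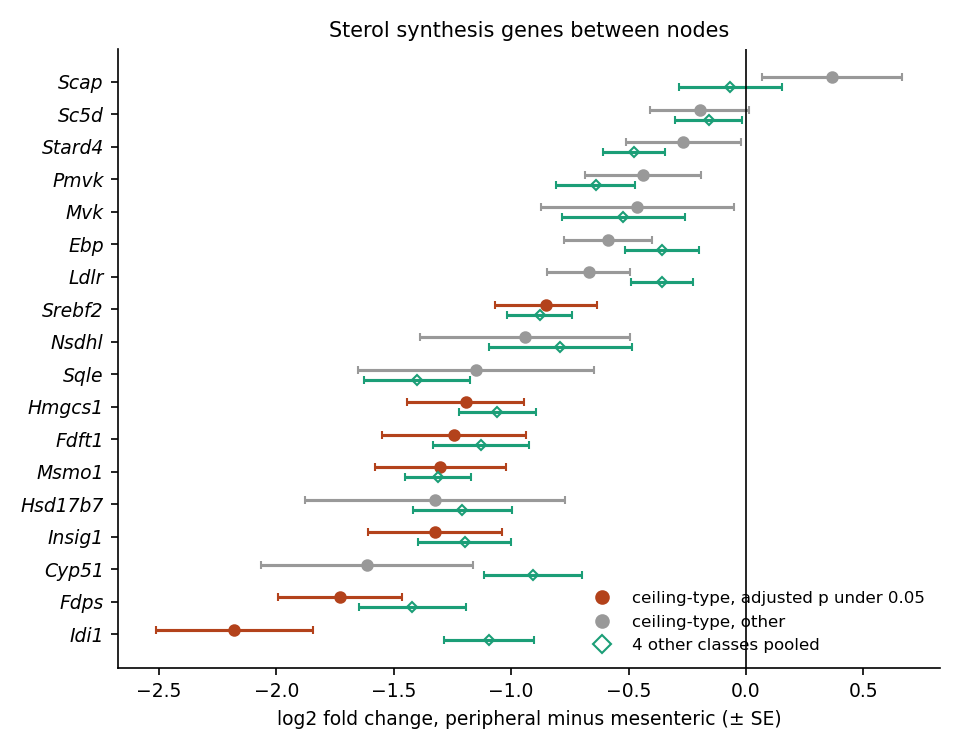
Log2 fold changes of 18 of the 20 tested sterol synthesis genes between nodes (x axis, peripheral minus mesenteric, ± SE). Filled circles are ceiling-type cells, in red where the adjusted p is under 0.05, and open diamonds are the other 4 classes pooled. Of the ceiling-type values 17 lie below 0, and the other classes lie below 0 for all 18 genes.

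The node difference was next compared with that in the other lymphatic cells of the same pools. Of 9648 genes tested in a joint fit, 80 differed between ceiling-type and other cells in their peripheral minus mesenteric change (0.829%). That fit kept each pool as a block, since both classes came from the same pool, and without the block 8 genes passed. The other classes were pooled, and their mix differed between tissues. Marco-type cells averaged 9.43% of lymphatic cells in peripheral and 19.9% in mesenteric pools, and Ptx3-type cells 8.66% and 5.51%. Against floor-type cells alone 46 of the 80 genes passed. The part of the mix in the 80 differences was otherwise not tested. For Lpl the other classes stood at 38.2 and 35.2 CPM in peripheral and mesenteric nodes, where the ceiling-type pools held 3.81 to 10.5 and 34.4 to 77.3 CPM. The difference was -2.82 ± 0.34 (SE; adjusted p = 8.39e-08), and without the cells that held fibroblast UMIs -2.19 (adjusted p = 0.000914). Nts-type cells, by themselves, stood at 88.9 and 123 CPM. Mgll, which completes the breakdown of stored triglyceride, was 66.6 to 105 CPM in peripheral and 187 to 323 CPM in mesenteric ceiling-type pools, against 59.2 and 68.6 CPM in the others (-1.34 ± 0.18 SE, adjusted p = 1.24e-06).

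For other genes of this contrast the values in the other classes, pooled over a mix that differed between tissues, are given beside those in ceiling-type cells. Tgfbr2, a TGF-beta receptor, stood at 587 ± 50.6 CPM in peripheral and 589 ± 56.5 CPM in mesenteric ceiling-type pools (SD, n = 4 each). In the other classes it was 263 and 159.7 CPM, which gave a difference of -0.73 ± 0.13 (SE; adjusted p = 0.000307). Ppp1r15a, a stress-induced phosphatase subunit, was 596 ± 84.5 against 416 ± 159 CPM, with the others lower in peripheral, at 1226 against 1592 CPM (0.95 ± 0.11 SE, adjusted p = 1.9e-08). The ubiquitin-like protein Ubd (2.80), the endotoxin carrier Lbp (-1.01), the chaperone Clu (0.73), Arrdc4 (0.91) and the glutamate receptor subunit Gria3 (1.47) were also among the leading genes. Without library 1 the differences of Arrdc4 (0.75, adjusted p = 0.341) and Gria3 (1.45, adjusted p = 0.215) did not pass. With sums thinned to the smallest, Mgll (adjusted p = 0.105), Lbp (adjusted p = 0.0732), Tgfbr2 (adjusted p = 0.308), Arrdc4 and Gria3 did not pass. Without the pool block Tgfbr2 (adjusted p = 0.139), Lbp, Clu, Ubd and Arrdc4 did not, and against floor-type cells alone Lbp and Clu did not. DESeq2 gave no adjusted p for the differences of Lpl and Ubd, and called 30 genes in all. Clu did not pass without the cells holding fibroblast UMIs (adjusted p = 0.164) or with stricter panels (adjusted p = 0.0891). The panel genes, which the rule used, had values of -0.07 for Ackr4, -0.48 for Gdf10 and -0.33 for Parm1.

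Xbp1, the targeted gene, was examined first in the genotype comparison. Xbp1 (GRCm38 chromosome 11, 5520659 to 5525893, plus strand) stood at 126 and 88.8 CPM in the WT peripheral pools, 51.9 and 59.6 CPM in the Xbp1-KO peripheral pools, 111 and 57.97 CPM in the WT mesenteric pools and 65.6 and 59.6 CPM in the Xbp1-KO mesenteric pools. Both Xbp1-KO peripheral pools lay below both WT pools, while in mesenteric nodes the WT pool of library 2 was level with the Xbp1-KO pools. The Xbp1-KO minus WT log2 fold change was -1.03 ± 0.23 (SE; adjusted p = 1) in peripheral nodes, -0.64 ± 0.34 (SE; adjusted p = 0.947) in mesenteric nodes and -0.84 ± 0.20 (SE; adjusted p = 0.398) over both. For Xbp1 alone, the unadjusted p in peripheral nodes was 0.000203 (edgeR's quasi-likelihood test). With the library as a term the value was -1.04 (adjusted p = 0.0582) in peripheral nodes and -0.80 (adjusted p = 0.0994) over both. Xbp1 RNA was thus present in all 4 pools labelled Xbp1-KO, and counts at the 3′ end of a transcript do not tell whether an upstream deleted part is missing.

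No ER target of XBP1 passed. Of 46 tested members 0 were called in any genotype comparison, 32 were below 0 over both tissues, and the median was -0.06 against -0.00344 over all genes. Hspa5, the main ER chaperone, was 0.26 ± 0.17 (SE; adjusted p = 1). In the other 4 classes together the list's median was -0.17 with 37 of 46 below 0. In peripheral nodes 0 of 8498 genes passed with edgeR (0%) and 0 with DESeq2, while 120 had an unadjusted p under 0.05 with edgeR and 7 with DESeq2. Over both tissues 1 gene passed (0.0118%), Atf3, a stress-induced transcription factor (0.90 ± 0.13 SE, adjusted p = 0.00938). It did not pass without library 2, at 0.61 (adjusted p = 0.999), or without the Xbp1-KO peripheral pool of library 2. With the library as a term 13 genes passed (0.153%).

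In mesenteric nodes the genes that were higher in Xbp1-KO ceiling-type cells included the stress-induced Atf3, the chaperones Hsp90aa1 and Hspb1 and the immediate early genes Fosb and Egr1. A total of 9 genes of 8498 passed (0.106%), 8 higher and 1 lower, and 28 passed with the library as a term (0.329%). Atf3 stood at 594 and 575 CPM in the WT peripheral pools, 593 and 737 CPM in the Xbp1-KO peripheral pools, 278 and 322 CPM in the WT mesenteric pools and 883 and 959 CPM in the Xbp1-KO mesenteric pools. The Xbp1-KO mesenteric pools were above all 6 others and the WT mesenteric pools below them, with a log2 fold change of 1.64 ± 0.20 (SE; adjusted p = 0.000481). The cytosolic chaperone Hsp90aa1 stood at 593 and 631 CPM in the WT and 1427 and 1518 CPM in the Xbp1-KO mesenteric pools, against 655 to 851 CPM in the peripheral pools (1.27 ± 0.18 SE, adjusted p = 0.00268). These 2 genes passed in each of the 8 fits that left out a pool. Hspb1, a small heat shock protein, stood at 1985 and 1417 against 4049.9 and 3506 CPM (1.13 ± 0.21 SE, adjusted p = 0.0375), but did not pass with the library as a term (adjusted p = 0.446).

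The other 5 genes higher in Xbp1-KO mesenteric pools were the co-chaperone Bag3 (1.58 ± 0.29 SE, adjusted p = 0.0251), the matrix protease Adamts1 (1.48 ± 0.25 SE, adjusted p = 0.0194), Fosb (1.13 ± 0.19 SE, adjusted p = 0.0194), Egr1 (1.12 ± 0.20 SE, adjusted p = 0.0246) and the cytokine signal inhibitor Socs3 (1.10 ± 0.22 SE, adjusted p = 0.0498). G0s2, an inhibitor of triglyceride lipase, was lower, at 75.1 and 57.97 CPM in WT and 15.1 and 10.4 CPM in Xbp1-KO pools (-2.55 ± 0.47 SE, adjusted p = 0.0251). Adamts1, Bag3, Egr1, Fosb, G0s2, Hspb1 and Socs3 each lost their calls in 2 to 4 of 8 fits that left out a pool. Without the Xbp1-KO mesenteric pool of library 2 all 7 did, with adjusted p = 0.297, 0.415, 0.333, 0.415, 0.576, 0.297 and 0.711 in that order. Without its library 1 counterpart Egr1, G0s2 and Hspb1 did. Without the WT mesenteric pool of library 1 Adamts1, Bag3, G0s2 and Socs3 did, and without that of library 2 Bag3, Egr1, Fosb, Hspb1 and Socs3 did; all 7 kept their sign. DESeq2 gave no adjusted p for Bag3 or G0s2. Bag3, Egr1 and G0s2 were not called with stricter panels, nor were Bag3, G0s2 and Socs3 with sums thinned to the smallest. Hspb1 was not called with a hashtag ratio of 5. Without the cells that held fibroblast UMIs 7 genes passed, and Bag3 (adjusted p = 0.0909) and Fosb (adjusted p = 0.145) did not.

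As a group, all 28 tested members of the dissociation and heat shock list were above 0 in this contrast, 7 passed and 13 did with the library as a term, with a median of 0.86 against -0.01 over all genes. In peripheral nodes 10 of 28 were above 0, 0 passed and the median was -0.03. In the other 4 lymphatic classes of the same mesenteric pools 26 of 28 were above 0, with a median of 0.62, and no member differed between ceiling-type and other cells in the knockout effect over both tissues. The list holds genes that digestion and sorting can induce, and the part of handling in the result was not tested. The Xbp1-KO mesenteric cells held medians of 5126 and 7628 UMIs, against 4560 to 6593 in the other pools, and 2.08% and 2.39% mitochondrial UMIs, against 2.32% to 2.52%.

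Promoters of 3 heat shock genes of this list are shown as examples, chosen after their values were seen. Hspb1 passed in the first fit, and Hspa1a (1.28, adjusted p = 9.56e-07) and Dnaja4 (1.89, adjusted p = 0.0450) passed with the library as a term only. Hspa1a, an inducible HSP70, stood at 555 and 1024 CPM in WT and 1599 and 2096 CPM in Xbp1-KO mesenteric pools; it shares reads with its near-identical copy Hspa1b, so its level is uncertain. Dnaja4, an HSP40 co-chaperone, stood at 23.5 and 6.44 against 60.5 and 77.7 CPM. The core of the heat shock element, GAANNTTC, reads the same on both strands. It was found in the 250 bases before a start for 7.73% of all 27025 genes in the table. Among the 24 list members with a promoter there, 8 held it (33.3%: Dnaja1, Dnaja4, Hspa1a, Hspa1b, Hspb1, Hspd1, Hspe1 and Jun), and 1 did among 7 of the 9 called genes. The sequences lie at chr5:135887669-135887918 (plus strand), chr17:34972157-34972406 (minus strand) and chr9:54699309-54699558 (plus strand) in RefSeq GRCm38.p6 and read 5′ to 3′ toward the start, with matches in capitals.
Hspb1: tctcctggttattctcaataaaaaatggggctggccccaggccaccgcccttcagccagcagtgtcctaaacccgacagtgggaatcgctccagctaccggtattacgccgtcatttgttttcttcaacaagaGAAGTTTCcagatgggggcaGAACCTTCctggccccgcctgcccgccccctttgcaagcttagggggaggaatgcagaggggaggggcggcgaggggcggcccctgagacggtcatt
Hspa1a: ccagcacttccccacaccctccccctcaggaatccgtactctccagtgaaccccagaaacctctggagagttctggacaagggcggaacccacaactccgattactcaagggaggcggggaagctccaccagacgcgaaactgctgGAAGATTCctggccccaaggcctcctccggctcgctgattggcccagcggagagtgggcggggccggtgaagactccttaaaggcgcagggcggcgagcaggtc
Dnaja4: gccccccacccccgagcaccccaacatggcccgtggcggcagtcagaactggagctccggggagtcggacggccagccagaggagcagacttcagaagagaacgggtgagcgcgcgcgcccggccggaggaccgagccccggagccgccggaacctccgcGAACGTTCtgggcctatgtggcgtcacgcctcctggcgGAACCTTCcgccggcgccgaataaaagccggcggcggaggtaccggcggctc
The Hspb1 and Dnaja4 windows hold 2 matches each and the Hspa1a window 1; a match in letters is a description and not a bound site.

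**Figure D5:**
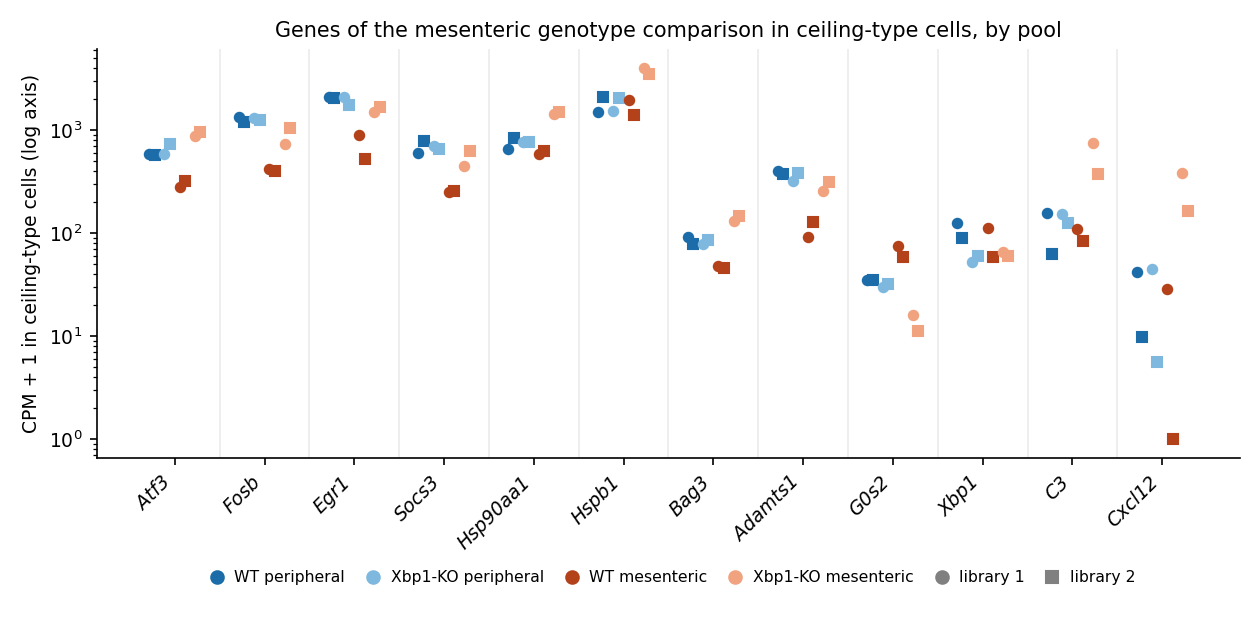
Levels of 12 genes of the mesenteric genotype comparison in the 8 pools of ceiling-type cells. The y axis is CPM + 1 on a log scale, circles are library 1 and squares library 2. Atf3, Hsp90aa1, Hspb1 and Bag3 are highest in the Xbp1-KO mesenteric pools; the excess of C3 and Cxcl12 in those pools comes mostly from the 2 cells with many fibroblast UMIs.

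Part of what the fit with the library term called in mesenteric Xbp1-KO pools came from those 2 cells. C3, the central complement protein, stood at 757 and 378 CPM in these pools against 109.5 and 83.7 CPM in WT mesenteric pools. The 2 cells held 75.3% and 59.6% of its UMIs there, while they held 3.17% and 3.52% of all UMIs, and without the cells with fibroblast UMIs the levels were 193 and 158 CPM. The log2 fold change went from 2.43 to 0.74 (adjusted p = 0.959). For the chemokine Cxcl12 they held 69.7% and 74.6% of UMIs, and for C4b all 14 and all 14 UMIs. For Atf3 they held 9.14% and 4.05%, and its fold change without them was 1.57 (adjusted p = 0.000948).

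The differences between effects were tested last. The knockout effect did not differ between tissues for any of 8498 genes with edgeR (0%), although 287 had an unadjusted p under 0.05. DESeq2 called 1 gene, and 11 passed with the library as a term, among them Atf3 (1.47, adjusted p = 0.000272), Adamts1 and Hsp90aa1. Between ceiling-type and other lymphatic cells, 2 of 9648 genes differed in the knockout effect (0.0207%), and 0 did without the pool block or with DESeq2. They were the neutrophil chemokine Cxcl1 (1.86 ± 0.30 SE, adjusted p = 0.000613) and Clu (0.54 ± 0.09 SE, adjusted p = 0.00716). Cxcl1 stood at 11.7 and 3.81 CPM in the WT peripheral pools, 23.8 and 28.04 CPM in the Xbp1-KO peripheral pools, 7.82 and 0 CPM in the WT mesenteric pools and 40.3 and 46.6 CPM in the Xbp1-KO mesenteric pools. Of its UMIs in the Xbp1-KO mesenteric pools, 50.0% and 77.8% lay in the 2 cells with many fibroblast UMIs. Without the cells that held such UMIs, neither Cxcl1 (1.44, adjusted p = 0.193) nor Clu (0.38, adjusted p = 1) passed.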

How the data were processed

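The authors deposited raw UMI counts per gene and cell barcode for 2 libraries. The file headers name Cell Ranger 6.0.1 as the counting tool, and the submitters' processing notes name Cell Ranger 6.1 and mm10. The labels give 2 different kit versions, so the chemistry is uncertain here. Cells needed at least 500 genes, at most 10% mitochondrial UMIs and a top hashtag of at least 10 UMIs and 3 times the next. Class rules are given in the results, and the members and gene lists were chosen with earlier results of these data known. Counts were summed per pool over ceiling-type cells and tested with edgeR 4.0.16 in R 4.3.3 (filterByExpr, TMM, robust quasi-likelihood F-test, Benjamini-Hochberg adjustment over all genes tested, adjusted p under 0.05). All 8 sums shared 1 fit. The comparison with other lymphatic cells used 16 sums with the pool as a block. Shares of cells were compared by two-sided exact permutation over pools.

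The labels put 4 pools in each library, so the library pairs the pools, and pools of a library deviated together (correlations of 0.0488 to 0.156). The fit with the library as a term was an alternative. Other alternatives were DESeq2 1.42.0, no filter, thinned sums, stricter hashtag and panel rules, removal of Scrublet doublets (23 ceiling-type cells, kept otherwise) and each pool or library left out. Removal of cells with fibroblast UMIs was added after the data were seen. Scrublet called 3.11% and 0.344% of barcodes in libraries 1 and 2, and the second rate is too low for the caller to have worked. Named genes were the panel genes, Xbp1, the 10 with the largest fold changes per direction with the same sign in both libraries, called members and the 3 most abundant members of each list, and up to 10 by smallest p in class contrasts. Ribosomal, mitochondrial and unnamed gene models were counted but not described. The scripts were checked on simulated counts. Gene positions come from GENCODE M21 on GRCm38, which matched 32235 of 32285 gene identifiers, and promoter sequences from RefSeq GRCm38.p6. Intervals cover counting error only. A few genes that the naming rule selects are not reported here.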

Additional observations from a re-analysis of the deposited data

Results flagged for a closer look

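The knockout effect differed between ceiling-type and other lymphatic cells for Cxcl1 by 1.86 and for Clu by 0.54 (log2; edgeR's quasi-likelihood test, adjusted p = 0.000613 and 0.00716). Both lost this without the cells that held fibroblast UMIs.

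The peripheral minus mesenteric change differed between ceiling-type and other lymphatic cells for 9 genes given here, from those with the smallest p. On the log2 scale, ceiling-type minus other, the differences were 0.95 for Ppp1r15a, -2.82 for Lpl, -1.34 for Mgll, 2.80 for Ubd, -1.01 for Lbp, 0.73 for Clu, 0.91 for Arrdc4, 1.47 for Gria3 and -0.73 for Tgfbr2. Clu did not pass without the cells that held fibroblast UMIs (edgeR's quasi-likelihood test, adjusted p = 0.164). Ubd, Lbp, Clu, Arrdc4 and Tgfbr2 did not pass without the pool block. With sums thinned to the smallest, Mgll, Lbp, Arrdc4, Gria3 and Tgfbr2 did not. Against floor-type cells alone Lbp and Clu did not. The mix of classes among the other cells differed between tissues, and its part in these differences was otherwise not tested.

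Single pools stood far from the other 3 of their group in 4 of 24 groups of 4 pools examined, where chance gives about 1 in 20. Each pool sat in a tissue group and in a genotype group, so the groups overlap and the count is a description. Among the mesenteric pools, Xbp1 was at 111 CPM in the WT pool of library 1. That group holds both genotypes, so a stray pool and the genotype cannot be told apart there. In the Xbp1-KO mesenteric pool of library 1, the dividing-cell markers summed to 60.5 CPM and the fibroblast markers to 691 CPM. The leukocyte markers summed to 12.8 CPM in the WT peripheral pool of library 1.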

How the results depend on the processing

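Among all genes called, 1 of 156 for tissue and 3 of 80 for the class contrast of tissue changed direction under at least 1 alternative; none of these 4 is named in the results. The 9, 1 and 2 genes called in the knockout contrasts kept their direction. With the library as a replicate block, the number of genes called was 485 for tissue, 13 for the knockout over both tissues, 28 in mesenteric nodes and 11 for the difference between tissues. Adding a library-by-genotype term gave 320 for tissue and 12 for the knockout. With the block and without cells holding fibroblast UMIs the counts were 492 for tissue, 11 for the knockout, 2 and 21 within peripheral and mesenteric nodes, and 6 between tissues. DESeq2 called 3, 20 and 1 for the knockout over both tissues, in mesenteric nodes and between tissues, and 0 and 30 for the class contrasts of genotype and tissue. Without a filter the counts were 313 for tissue, 15, 43 and 9 for the same 3 knockout contrasts, and 5 and 134 for the class contrasts. Sums thinned to the smallest gave 72 for tissue, and 4 and 13 for the class contrasts. Stricter panels gave 3 for the knockout, 2 between tissues and 0 for the class contrast of genotype, and a hashtag ratio of 5 gave 1 between tissues. WT pools alone gave 49 for tissue. Against floor-type cells alone the class contrasts gave 1 and 144, and without the pool block 0 and 8. Without cells holding fibroblast UMIs the class contrast of genotype gave 0. Leaving out a pool or library gave 99 to 410 for tissue, 0 to 21 for the knockout, 6 to 18 in mesenteric nodes, 0 to 3 between tissues, 18 to 26 for the class contrast of genotype and 50 to 104 for that of tissue. With labels permuted within libraries, as a replicate block, the differences in share of 11.9 points between tissues and -7.25 points between genotypes had exact permutation p = 0.0556 and 0.333. The tissue difference was 13.6 points with stricter panels and 12.3 points of all cells. The causes of these changes were not tested. In the knockout contrasts, sex and genotype cannot be told apart when a library is left out, and are unbalanced when a pool is. DESeq2, over 16137 genes, placed the median of all genes at -0.10 for tissue, against 0.01. The planned removal of small sums changed nothing, since no sum held under 20 cells. The mesenteric sums, of 23 to 131 cells, limit what could be detected.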
